A study of Arabidopsis thaliana with 6 samples.

Results

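The GDSL-type esterases and lipases form a large plant family of hydrolases named after the short GDSL sequence block around their catalytic serine. Its genes were chosen here by locus from a list of 60, and each was read from the probe set that the platform's gene table assigns to that gene alone. This gave 46 measured genes among 13356 genes measured in all. Another 5 listed genes lay only on probe sets shared with other genes, and 9 were not named in that table and were not analysed here. Of the 19 listed genes with a described role 11 were measured, and the other 8 were among these 9, namely LTL1, ESM1, CDEF1, GLIP1, MVP1, FXG1, GLL22 and GLL23.

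The comparison was between callus and leaf of Arabidopsis thaliana Col-0, with 3 arrays each. Calli had been grown for 20 days on callus-inducing medium (CIM), which holds a synthetic auxin, the cytokinin kinetin and glucose, from leaf blades of 20-day-old seedlings. Leaves came from 20-day-old seedlings. The study's sample descriptions give 16 h of light, 8 h of dark and 21°C for both tissues, whereas its methods describe explants kept in the dark on CIM, and which held for these calli is not known. Tissue, medium, hormones and culture therefore differed together. Values are log2 expression values, so that a difference of 1 is a 2-fold change. In whole tissue, fewer cells of a type and less RNA per cell cannot be told apart.

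Enzymes of this family act on esters of many kinds. Some build or cut the polyesters of the plant surface, cutin of the epidermal cuticle and suberin of root and wound tissue. Others belong to the glucosinolate defence of the mustard family, to seed oil turnover or to defence against fungi, and many have no described role.

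In callus 15 of the 46 GDSL genes were lower and 5 were higher than in leaf, while 26 did not pass the test (limma, Benjamini-Hochberg adjusted p below 0.05 together with a difference above 2-fold). Over all genes 29.6% were called, 13.2% lower and 16.4% higher, and for the GDSL genes the shares were 32.6% and 10.9%. A fall of more than 4-fold was found for 12 GDSL genes (7.16% of all genes), and a rise of that size for 1 (6.28% of all genes). The median log2 fold change was -0.13 for the GDSL genes and 0.01 for all genes, and the median size of a change without its sign was 0.88 and 0.41. The callus and leaf arrays did not overlap for 38 of the 46 genes, against 66% of all genes. The median SD over the 3 arrays was 0.0839 in callus and 0.106 in leaf.

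**Figure D1:**
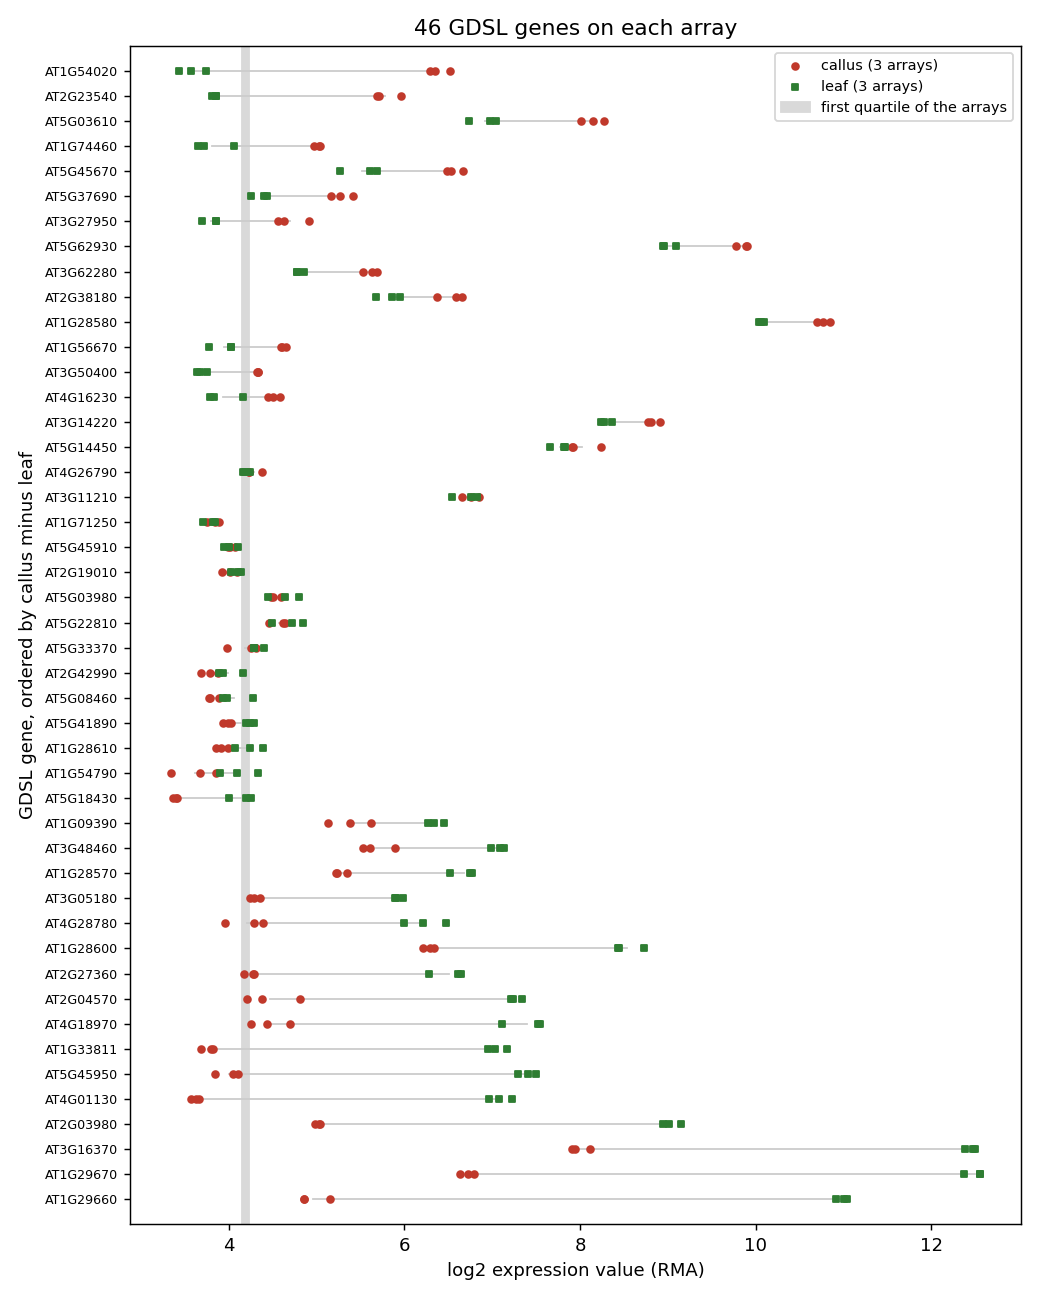
Log2 expression value (horizontal axis) of each of the 46 GDSL genes (vertical axis, ordered by callus minus leaf) on 3 callus arrays (circles) and 3 leaf arrays (squares), with a grey line between the group means and a grey band for the first quartile of the arrays. The callus and leaf arrays are wholly apart for 38 genes, and the widest gaps are those of genes that were lower in callus.

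The adjacent genes AT1G29660 and AT1G29670 fell most. AT1G29660 stood at 5.15, 4.85 and 4.86 on the callus arrays and at 11.003, 10.910 and 11.037 on the leaf arrays. Its log2 fold change was -6.03 ± 0.0907 (SE, adjusted p = 3.04e-17), or 65.3-fold lower by the ratio of leaf to callus. AT1G29670 stood at 6.64, 6.73 and 6.80 on the callus arrays and at 12.38, 12.55 and 12.56 on the leaf arrays. In both genes every callus array lay far below every leaf array. The log2 fold change of AT1G29670 was -5.77 ± 0.0677 (adjusted p = 2.52e-18). Among the 4 neighbouring pairs with both genes measured, this was the only one in which both were called.

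AT3G16370, named APG in protein databases, fell next. It stood at 7.91, 7.94 and 8.12 in callus and at 12.47, 12.38 and 12.50 in leaf, with a log2 fold change of -4.46 ± 0.0636 (adjusted p = 1.88e-17). Its signal in callus was still well above the first quartile of the arrays (4.15 to 4.23), so that this gene was lower but not dim. AT2G03980 stood at 5.02, 5.04 and 4.99 in callus and at 8.94, 9.01 and 9.15 in leaf, a change of -4.02 ± 0.0916 (adjusted p = 2.91e-15).

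AT4G01130, AT5G45950 and AT1G33811 were moderately bright in leaf and dim in callus. AT4G01130 stood at 3.66, 3.57 and 3.62 in callus and at 7.08, 6.96 and 7.23 in leaf (log2 fold change -3.47 ± 0.116, adjusted p = 2.60e-13). AT5G45950 stood at 4.10, 4.05 and 3.84 in callus and at 7.294, 7.501 and 7.412 in leaf (-3.41 ± 0.118, adjusted p = 4.18e-13). AT1G33811 stood at 3.82, 3.80 and 3.68 in callus and at 6.95, 7.16 and 7.03 in leaf (-3.28 ± 0.114, adjusted p = 4.52e-13). All callus arrays of these 3 genes lay below the first quartile of their array. The deposited values carry no detection call, so that a fold against such a dim value is not exact.

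AT2G27360 was at 4.17, 4.28 and 4.29 in callus and at 6.27, 6.62 and 6.64 in leaf (log2 fold change -2.27 ± 0.125, adjusted p = 1.48e-10). The other genes that fell, apart from those described below by role or position, were AT4G28780 with a log2 fold change of -2.02 and AT3G05180 with -1.63. AT4G28780 varied between leaf arrays (6.477, 6.215 and 5.997), yet no callus array (3.95, 4.39 and 4.28) came near them. The callus values of AT2G27360, AT4G28780 and AT3G05180 lay near the first quartile of the arrays, so that their folds are not exact either.

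**Figure D2:**
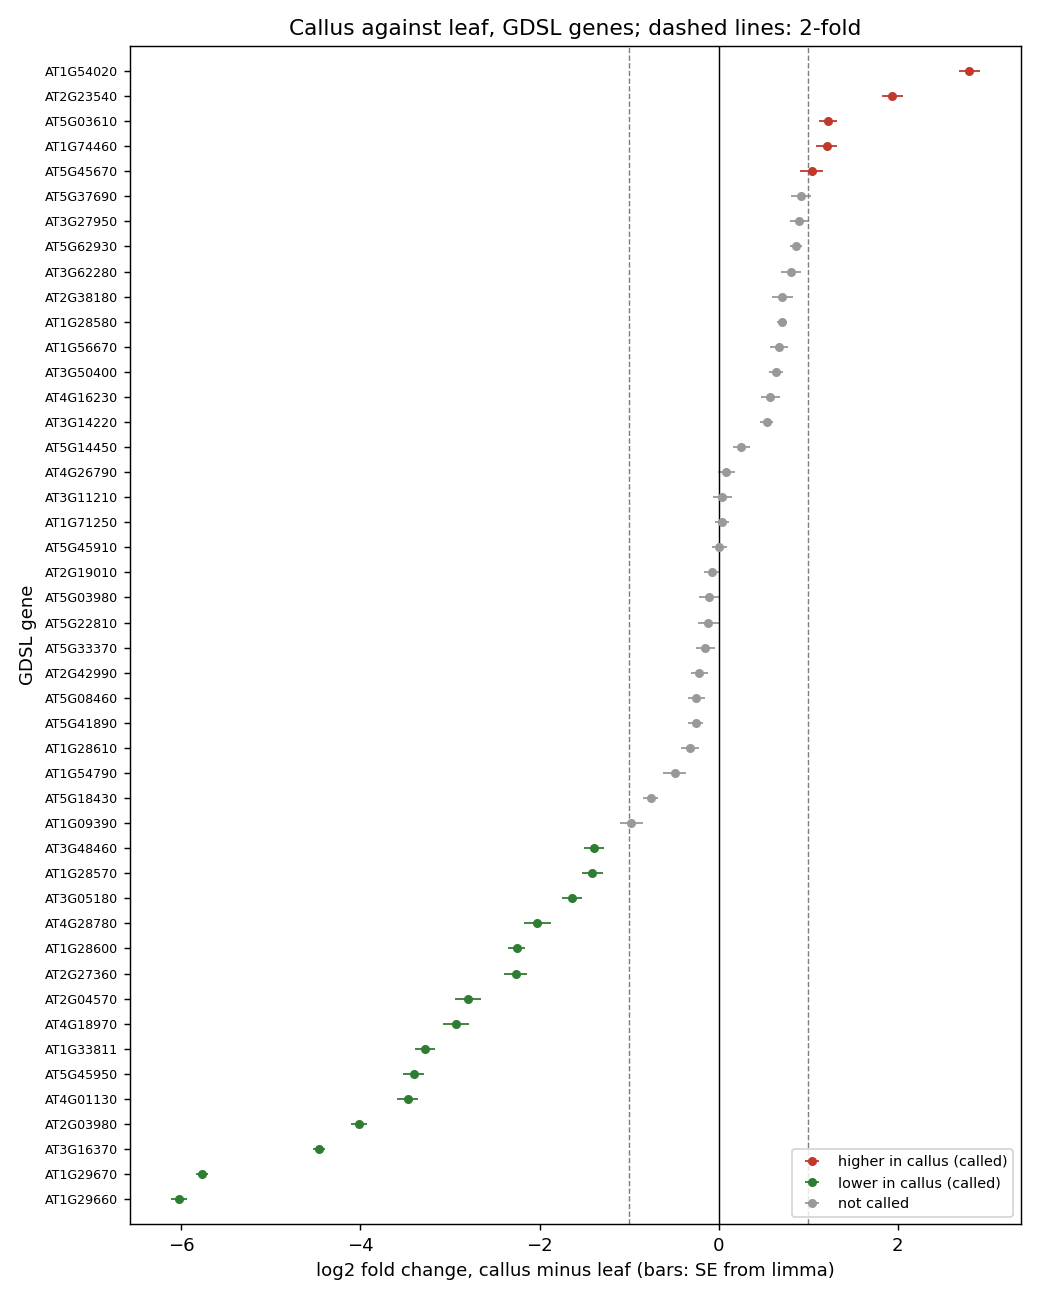
Log2 fold change, callus minus leaf (horizontal axis), of the 46 GDSL genes (vertical axis), with bars for the SE from limma and dashed lines at a 2-fold change. The 15 genes called lower reach -6.03, whereas the 5 called higher reach 2.80 and 4 of these lie below 2.

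Of 5 measured genes of the cuticle and of suberin 2 rose, 1 fell and 2 were not called. AT2G23540, linked to root suberin, rose. It stood at 5.71, 5.96 and 5.68 in callus and at 3.81, 3.85 and 3.86 in leaf, 3.84-fold higher in callus (log2 fold change 1.94 ± 0.113, adjusted p = 2.70e-10). AT1G74460, also linked to suberin, stood at 4.97, 5.03 and 5.04 in callus and at 4.06, 3.64 and 3.71 in leaf (1.21 ± 0.115, adjusted p = 1.33e-07). In both genes all leaf arrays lay below the first quartile of their array and all callus arrays above it. The third, AT5G37690, stood at 5.17, 5.41 and 5.27 in callus and at 4.44, 4.25 and 4.40 in leaf. The groups did not overlap, but its change of 0.92 ± 0.113 stayed under 2-fold and was not called (adjusted p = 2.65e-06).

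OSP1 (AT2G04570), which acts in wax formation and in the cuticular ledge over the stomatal pore, fell. It stood at 4.38, 4.81 and 4.21 in callus, the widest spread of any measured GDSL gene in callus, and at 7.22, 7.23 and 7.34 in leaf (log2 fold change -2.80 ± 0.141, adjusted p = 4.62e-11). The lowest of these callus values lay just below the first quartile of its array. CUS2 (AT5G33370), of the cutin synthase family, was dim in both tissues, at 4.31, 3.98 and 4.25 in callus and at 4.40, 4.29 and 4.29 in leaf. The groups overlapped and the difference of -0.15 ± 0.104 did not pass the test (adjusted p = 0.250). At a signal this near the first quartile, a small true difference could have gone unseen.

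Markers of leaf photosynthesis, 2 of 4 measured guard cell genes and the only measured trichome gene were also lower in callus. Of 20 listed leaf photosynthesis genes 8 were measured and all 8 were lower in callus, with a summed linear signal of 369 to 372 in callus and 61754 to 65571 in leaf. Of 11 guard cell genes 4 were measured. GC1 fell by 3.88 and the guard cell regulator FAMA fell by 2.35 on the log2 scale. SPCH (-0.12) and MUTE (-0.15) were not called and lay below the first quartile on all arrays. The summed linear signal of these 4 genes was 62.5 to 69.9 in callus and 476 to 555 in leaf. TRY, the only measured gene of 5 trichome genes, fell by 2.16 on the log2 scale. The part of these cell types in the fall of OSP1 or of other GDSL genes was not tested. Of 6 root hair genes 2 were measured and of 10 tapetum genes 2, and 0 of these 4 passed the test. Both tapetum genes, AMS and A9, lay below the first quartile on all arrays. No gene of the endodermis list (10 genes) or the seed list (12 genes) was measured. As a sign of RNA quality, the log2 difference between the 3′ and 5′ actin control probe sets was 1.48 to 1.59 on the callus arrays and 1.57 to 2.11 on the leaf arrays. For GAPDH it was 0.291 to 0.461 in callus and 0.184 to 0.314 in leaf, and for ubiquitin -0.12 to -0.054 in callus and -0.14 to 0.0033 in leaf. The part of these differences in the results was not tested.

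Of 64 other genes of cuticle, wax and suberin, 4 were measured, 1 was higher and 0 were lower. FACT, a fatty alcohol caffeoyl transferase that makes caffeates of suberin-associated wax, averaged 5.83 ± 0.129 in callus and 4.47 ± 0.105 in leaf (SD, n = 3), with a log2 fold change of 1.37 ± 0.118 (SE, adjusted p = 3.68e-08). BDG3 (0.41), SHN3 (-0.08) and the wax ester synthase gene WSD1 (-0.67) were not called. After centring on the reference gene TIP41, FACT was not called (0.78) and WSD1 was called lower (-1.26).

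Several GDSL proteins act with the beta-glucosidases that release toxic products from glucosinolates, and some are found with PYK10, the main enzyme of the ER bodies. AT1G54020, annotated as myrosinase-associated, had the largest rise of the measured GDSL genes. It stood at 6.51, 6.29 and 6.34 in callus and at 3.57, 3.44 and 3.74 in leaf. Every leaf array lay below the first quartile, and every callus array was above the median of its array (5.92 to 5.95). The rise was 6.97-fold, with a log2 fold change of 2.80 ± 0.120 (SE, adjusted p = 5.97e-12). AT1G54020 lies in a row with GLL22 (AT1G54000), GLL23 (AT1G54010) and MVP1 (AT1G54030), which were not analysed here. AT1G54020, GLL22 and GLL23 are on the study's list of loci with decreased H3K27me3 in callus, a list from separate arrays of the same tissues. The study also counted peaks upstream of a gene, so that these adjacent genes may share a peak, which was not looked into. AT1G28610 is the only GDSL gene on the list of loci with increased H3K27me3 and is described below.

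AT3G14220, the neighbour of ESM1, stood at 8.81, 8.91 and 8.77 in callus and at 8.27, 8.24 and 8.37 in leaf. The groups did not overlap, but the change was 0.54 ± 0.0712 and under 2-fold (adjusted p = 5.77e-06). Of 33 other genes of glucosinolate breakdown and ER bodies 8 were measured, 7 of these were higher in callus and 0 were lower. JAL33, PYK10, JAL22 and NAI2 had the largest changes. NAI2, needed for ER bodies to form, averaged 10.82 ± 0.0154 in callus and 4.42 ± 0.200 in leaf (SD, n = 3). Its regulator NAI1 averaged 7.32 ± 0.307 in callus and 5.74 ± 0.532 in leaf. The log2 fold change was 6.40 ± 0.0975 for NAI2, 7.91 ± 0.0663 for PYK10 and 1.58 ± 0.209 for NAI1 (SE, adjusted p = 5.75e-06 for NAI1). After centring on the reference gene TIP41 the value of NAI1 was 0.99 and it was not called, which left 6 genes of this list higher.

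Seed fatty acid reducers are GDSL genes that lower the oil content of seeds when overexpressed. The 4 measured here all had negative values as deposited, and 2 of 4 were called. The values of SFAR1 and SFAR3, which were not called, turned positive on the poly-A controls described below. That of SFAR3 also turned positive on the hybridization controls (0.048). SFAR5 (AT4G18970) stood at 4.70, 4.44 and 4.25 in callus and at 7.11, 7.52 and 7.54 in leaf (log2 fold change -2.93 ± 0.144, adjusted p = 3.37e-11). SFAR4 (AT3G48460) stood at 5.61, 5.53 and 5.89 in callus and at 6.98, 7.09 and 7.13 in leaf (-1.39 ± 0.115, adjusted p = 2.17e-08). For these genes no callus array reached a leaf array. SFAR1 (AT1G54790) was at 3.34, 3.67 and 3.85 in callus and at 4.33, 4.09 and 3.90 in leaf, and its change of -0.49 ± 0.126 was under 2-fold (adjusted p = 0.00289). SFAR3 (AT2G42990) was at 3.68, 3.88 and 3.78 in callus and at 4.16, 3.89 and 3.94 in leaf, a difference of -0.21 ± 0.0912 that did not pass the test (adjusted p = 0.0552). SFAR3 lay below the first quartile on all 6 arrays and SFAR1 on 5 of them.

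In another row of GDSL genes the values differed in sign between neighbours. AT1G28570, AT1G28580, AT1G28600 and AT1G28610 follow each other on chromosome 1, with 1 further coding gene between AT1G28580 and AT1G28600. AT1G28570 stood at 5.23, 5.35 and 5.22 in callus and at 6.77, 6.51 and 6.75 in leaf (log2 fold change -1.41 ± 0.113, adjusted p = 1.58e-08). AT1G28600 stood at 6.29, 6.34 and 6.21 in callus and at 8.43, 8.44 and 8.73 in leaf (-2.25 ± 0.0960, adjusted p = 5.48e-12). In both genes the callus arrays lay wholly below the leaf arrays. In AT1G28580, which lies between them, they lay wholly above, at 10.77, 10.70 and 10.84 in callus and at 10.09, 10.06 and 10.03 in leaf. Its change of 0.71 ± 0.0546 was under 2-fold and not called (adjusted p = 9.60e-09). AT1G28610 was dim, at 3.99, 3.91 and 3.85 in callus and at 4.39, 4.07 and 4.24 in leaf. Its change of -0.32 ± 0.0971 was not called (adjusted p = 0.00985). The differences between neighbours were not tested.

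**Figure D3:**
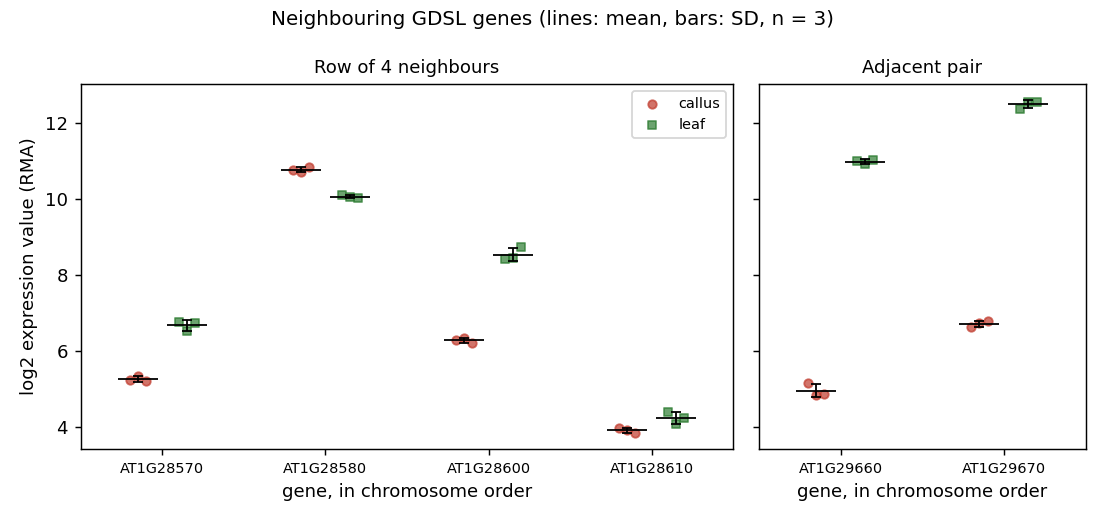
Log2 expression value (vertical axis) on each array of 4 neighbouring GDSL genes and of an adjacent pair (horizontal axis, in chromosome order), callus as circles and leaf as squares, with the mean and SD (n = 3). In the row of 4, with the deposited values, AT1G28580 has its callus arrays above its leaf arrays and the other 3 genes have them below, whereas both genes of the pair are far lower in callus.

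AT5G03610 and AT5G45670, with no described role used here, were the other genes that rose. AT5G03610 stood at 8.27, 8.15 and 8.01 in callus and at 6.73, 7.04 and 6.98 in leaf (log2 fold change 1.22 ± 0.1005, adjusted p = 2.06e-08). AT5G45670 stood at 6.67, 6.53 and 6.49 in callus and at 5.26, 5.69 and 5.60 in leaf. Its rise, 2.06-fold (1.04 ± 0.126, adjusted p = 2.11e-06), lay close to the threshold, and without callus replicate 1 or leaf replicate 1 it was not called (0.99 and 0.91). Nor was AT5G45670 called after centring on the array median (0.95) or with quantile normalization applied again (0.97).

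Of the 26 genes that were not called, 17 passed the adjusted p of 0.05 but differed by less than 2-fold, and 11 of these had higher values in callus. Of all genes that were not called 44.8% passed that p. At any fold 37 of the 46 GDSL genes (80.4%) and 61.2% of all genes passed it. In all 17 the callus and leaf arrays did not overlap, which is likely beforehand for genes picked by a small p on few arrays. The share among all genes picked in the same way is not given here. AT5G62930 stood at 9.90, 9.90 and 9.78 in callus and at 8.96, 8.95 and 9.09 in leaf (log2 fold change 0.86 ± 0.0651, adjusted p = 7.53e-09). AT3G27950 and AT3G62280 were at 0.90 and 0.81. AT1G09390 was just under the threshold on the other side, at -0.98 ± 0.130, and was called lower without callus replicate 2 (-1.10) or leaf replicate 2 (-1.02). The 9 genes without such a p had log2 fold changes between -0.21 and 0.09. AT3G11210 was the brightest of them, at 6.65, 6.76 and 6.84 in callus and at 6.54, 6.76 and 6.83 in leaf (0.04 ± 0.105, adjusted p = 0.772). Of the 46 genes, 4 lay below the first quartile on all 6 arrays, as did 21.6% of all genes, and their values carry no call of detection.

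The balance of rises and falls depended on how the arrays were scaled, since the deposited values give every array nearly the same distribution. With all genes shifted by centring on the poly-A controls (median of all genes 0.75), 15 GDSL genes were higher and 12 lower, 32.6% and 26.1%, against 33.4% and 8.3% of all genes. On the hybridization controls (median 0.27) 9 were higher and 15 lower, against 20.8% and 11.3% of all genes. After centring on the reference gene TIP41 (median -0.58) 2 were higher and 18 lower, against 9.41% and 20.9% of all genes. The share called lower was above that of all genes under each of these scalings. Of the 5 genes that rose, AT1G54020 and AT2G23540 were called under all of them, whereas AT1G74460 (0.62), AT5G03610 (0.64) and AT5G45670 (0.45) were not called on TIP41. Of the 15 that fell, AT3G05180 (-0.90), AT3G48460, which is SFAR4 (-0.65) and AT1G28570 (-0.67) were not called on the poly-A controls.

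**Figure D4:**
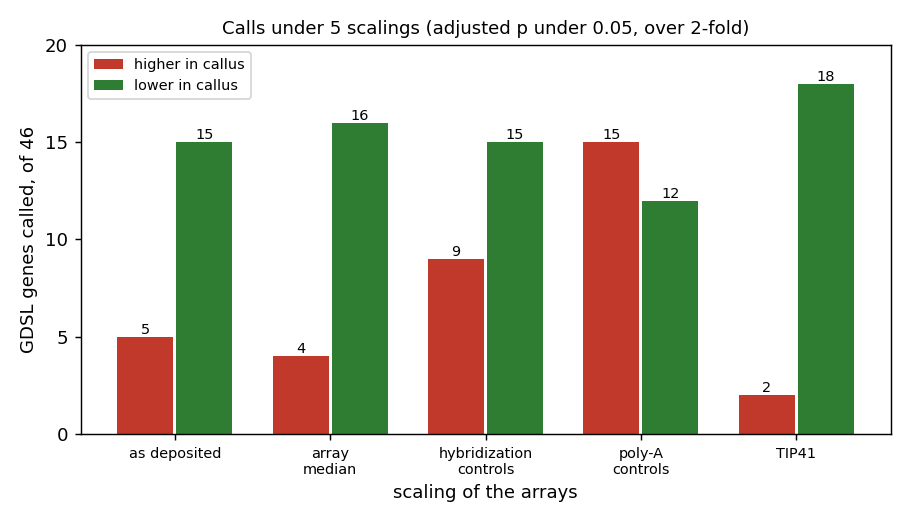
Number of the 46 GDSL genes called higher and lower in callus (vertical axis) with the deposited values and after centring each array on its median, the hybridization controls, the poly-A controls or TIP41 (horizontal axis). The count of lower genes stays between 12 and 18, whereas the count of higher genes runs between 2 and 15.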

How the data were processed

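Expression was profiled on Affymetrix GeneChip arrays in 3 callus and 3 leaf samples, described in the methods as separate experiments. Values are on the log2 scale, one for each probe set and array, as the authors deposited them, and the submitters' processing notes name RMA and Partek, with versions not given in the sources used here. The table held 22810 probe sets, 64 of them controls. No other sample columns were present (0).

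The platform's gene table gave 13513 probe sets with 1 gene, 503 with several and 8730 not listed, which are unnamed here. Where a gene had several, the brightest on average across the 6 arrays stood for it (13356 genes). No measured GDSL gene had more than 1. Probe sets were not set against each other in level. RefSeq TAIR10.1 was used for symbols and gene order only.

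The test of callus against leaf used R 4.3.3 and limma 3.58.1 with lmFit and a trended eBayes, adjusted over all genes by Benjamini-Hochberg. Calls needed an adjusted p below 0.05 and more than 2-fold. Alternatives changed the moderation, scaling, filters, thresholds, probe set choice and the arrays included. Scripts were tested on simulated data. The members, roles, 2 pathway lists and 7 marker lists were chosen with earlier results of these data known. Named in full were up to 10 called genes per direction, those with a described role, those on an H3K27me3 list, the 3 brightest probe sets per tissue, and GDSL genes adjacent to any of these. AT3G11210, AT4G28780, AT1G09390, AT3G05180, AT3G27950 and AT3G62280 were named with their values after these were seen. So were further genes given below because their sign turned under another setting. Arrays of lowest correlation within a tissue were at 0.9967 (callus) and 0.9949 (leaf).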

Additional observations from a re-analysis of the deposited data

How the results depend on the processing

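The counts of 5 GDSL genes higher and 15 lower were the same without the intensity trend and with robust moderation. They were also the same by the unadjusted p from limma, with all probe sets fitted and with shared probe sets kept. These settings leave the fold changes of the measured GDSL genes as they were. Those above 2-fold had adjusted p values of at most 2.11e-06 in the main limma fit, so that their calls could hardly change. Without one array at a time 4 to 5 were higher and 15 to 16 lower, with medians of -0.20 to -0.10. Quantile normalization applied again and centring on the array median each gave 4 higher and 16 lower. On the array median these were 8.7% and 34.8%, against 14.9% and 14.1% of all genes. For the quantile step the shares of all genes were not worked out. The replicate block, which also leaves the fold changes as they were, gave 5 and 15 and changed no member's call. Same-numbered arrays deviated with correlations of -0.11, 0.072 and -0.043, and 2 of 6 arrays were closest to their own number. No pairing by number was seen, but 3 arrays per tissue cannot exclude it. Whether callus and leaf of the same number came from the same experiment is not known.

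With no fold threshold 16 were higher and 21 lower (34.4% and 26.7% of all genes). At 1.5-fold these were 13 and 17 (24.4% and 18.1%) and at 4-fold 1 and 12 (6.28% and 7.16%). Leaving out genes below the median signal kept 19 GDSL genes, 2 higher and 10 lower, with a median of -1.39. Genes bright in leaf alone could pass this filter, such as AT5G45950, whose callus arrays all lay below the first quartile. AT1G54020, with every callus array above the median of its array, was left out. These counts and this median therefore depend in part on which genes the filter kept. The shares of all genes under this filter are not given here. The median log2 fold change of the members was 0.13 on the hybridization controls (9 higher), 0.61 on the poly-A controls (15 higher) and -0.72 on TIP41 (2 higher). In the cuticle, wax and suberin list 2 genes were higher on the poly-A controls and with no fold threshold. There 0 were higher on TIP41, above the median signal (0 genes left) and at 4-fold, and 1 was lower on TIP41, at 1.5-fold and with no fold threshold.

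Each centring subtracts one constant from every difference (0.095 for the array median, -0.26 for the hybridization controls, -0.74 for the poly-A controls and 0.59 for TIP41), so that only genes with smaller differences could turn sign. On the hybridization controls those that turned were AT2G19010 (0.19), AT2G42990 (0.048), AT5G03980 (0.16), AT5G08460 (0.012), AT5G22810 (0.15), AT5G33370 (0.11) and AT5G41890 (0.0047). On the poly-A controls they stood at 0.66, 0.53, 0.63, 0.49, 0.62, 0.59 and 0.48, with AT1G28610 at 0.42 and AT1G54790 at 0.25. On TIP41 they were AT3G11210 (-0.55), AT3G14220 (-0.049), AT4G16230 (-0.0071), AT4G26790 (-0.50), AT5G14450 (-0.33), AT5G45910 (-0.58) and AT1G71250 (-0.55). On the array median AT3G11210 (-0.055), AT4G26790 (-0.0083), AT5G45910 (-0.089) and AT1G71250 (-0.061) turned, and with quantile normalization again AT3G11210 (-0.024). Without one array at a time AT5G45910 ranged between -0.028 and 0.049, AT3G11210 between -0.043 and 0.1005 and AT1G71250 between -0.0068 and 0.074. Dim signals and 3 arrays per tissue limit what could be seen.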

Other observations

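GDSL genes that lay only on probe sets shared with other genes gave no comparison of their own. The probe set of AT5G03810 and AT5G03820 was dim, with means of 3.58 ± 0.0947 for callus and 3.70 ± 0.139 for leaf (SD over 3 arrays). That of AT2G30310 and AT2G30220 had 3.73 ± 0.104 for callus and 3.68 ± 0.124 for leaf. Also dim was the one that holds AT3G43570 with 5 further genes, with 3.42 ± 0.0159 for callus and 3.65 ± 0.0847 for leaf. AT3G26430 shared 2 probe sets with the RNA-binding protein gene ATRZ-1A, and these went opposite ways. One stood at 5.40, 5.33 and 5.45 in callus and at 6.14, 6.53 and 6.40 in leaf, and the other at 9.89, 9.97 and 10.21 in callus and at 9.69, 9.59 and 9.45 in leaf. Which of the genes gave these signals cannot be told apart.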
